A study of Mus musculus with 23 samples.

Results

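This report describes 38 genes of the unfolded protein response and of the amino-acid stress response, out of 18193 genes measured on Affymetrix arrays in mouse embryonic fibroblasts. The genes were taken by symbol, and for each the probe set with the highest mean level was used. By role they were 14 chaperones and folding enzymes of the endoplasmic reticulum (ER), 6 ER stress sensors, transcription factors and degradation genes, 7 stress transcription factors and feedback genes, and 11 genes of amino-acid synthesis, one-carbon metabolism and transport. All 38 passed the filter on low values.

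The study compared transactivation-deficient forms of p53 in fibroblasts that all carried a retroviral H-Ras V12 transgene, an oncogene that drives wild-type fibroblasts into senescence but not fibroblasts without p53. There were 23 arrays. The group 25,26 (5 arrays) carried a knock-in allele that disrupts the first transactivation domain of p53, the group 53,54 (3 arrays) one that disrupts the second, and QM (3 arrays) one that disrupts both. These 3 alleles lay behind a lox-stop-lox (LSL) cassette, which adenoviral Cre removes, and all of these cells had received adenoviral Cre. The WT group (6 arrays) joined LSL-WT cells given Cre (replicates 1 to 3) and WT cells given Cre (replicates 4 to 6). Null (6 arrays) joined LSL-WT cells given an empty adenovirus, in which the cassette remains (replicates 1 to 3), and p53-null cells given Cre (replicates 4 to 6). Zygosity, age and passage are not given in the labels. Strain was 129/Sv in 4 arrays of Null, 3 of WT, 2 of QM, 1 of 53,54 and 4 of 25,26, and 129/Sv mixed with C57BL6 in the rest. The labels of WT replicate 6 disagree, with WT cells in its title and the LSL-WT allele under genotype, and it was placed by its title. The genotype label of Null replicate 6 adds the word knock-in, which its title does not have. The design text calls the arrays biological samples, but nothing says whether they came from separate embryos, so p-values measure only the spread between these samples.

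All values are log2 levels of the deposited intensities, so a difference of 1 is a doubling. The array medians lay between an intensity of 59.9 and 64.2, and the number of arrays limits the precision. The transcript of the targeted gene is not analysed here, so the labels were checked through 5 p53 targets, Cdkn1a, Mdm2, Ccng1, Zmat3 and Psrc1. All 5 were higher than in Null in WT (median log2 difference 2.66), 53,54 (2.67) and 25,26 (1.93), and none passed the threshold in QM (0.42). The fibroblast markers Vim and Col1a2 were high in every array, at 14.52 or above and 13.58 or above. The leukocyte gene Ptprc never exceeded 4.46, below the filter level of 4.79. Of the 8 macrophage markers listed, 5 were among the genes tested, so Ptprc does not stand for all of them.

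As background, unfolded proteins in the ER are sensed by Ern1 (IRE1), Atf6 and Eif2ak3 (PERK). Ern1 splices the Xbp1 transcript, Atf6 is released by cleavage, and both raise the transcription of chaperone and degradation genes through ER stress elements. PERK and the amino-acid sensor GCN2 phosphorylate the translation factor eIF2, which favours translation of Atf4, and Atf4 turns on genes of amino-acid synthesis, uptake and tRNA charging. Splicing, cleavage and translation are not measured by these arrays, which report total transcript.

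The promoters of the chaperones and of the amino-acid genes differed in known elements, and the windows below are shown because they carry the elements by which each branch is known to act. Promoters (250 bases before to 50 after the start) of 34 of the 38 genes were in the RefSeq table of mouse build GRCm38.p6, and those of Hyou1, Manf, Atf6 and Slc7a5 were not used here. The ER stress element was searched on both strands as CCAAT, then 9 bases of any kind, then CCACG. It was in 7 of 12 chaperone promoters (Hspa5, Hsp90b1, Pdia6, Calr, Canx, Dnajc3 and Creld2) and in Syvn1, in none of 10 amino-acid gene promoters, and in 0.119% of all 32851 promoters. In the next 4 windows capitals mark the CCAAT and CCACG parts, on the strand of the gene.
Hspa5, chr2:34772015-34772053, plus strand: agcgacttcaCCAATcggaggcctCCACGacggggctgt
Hsp90b1, chr10:86705628-86705666, minus strand: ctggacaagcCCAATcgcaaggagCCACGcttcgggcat
Pdia6, chr12:17266481-17266519, plus strand: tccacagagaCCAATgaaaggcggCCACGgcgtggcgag
Canx, chr11:50325790-50325828, minus strand: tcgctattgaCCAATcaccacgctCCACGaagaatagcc

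The amino-acid response element, at which Atf4 binds together with a C/EBP protein, was searched as TGATGNAA on both strands. It was in 6 of the 34 promoters (Herpud1, Atf3, Trib3, Chac1, Asns and Slc7a11), and in 3.97% of all promoters. Capitals mark the match in the 3 windows below, and Slc7a11 holds one copy on each strand.
Asns, chr6:7693210-7693252, minus strand: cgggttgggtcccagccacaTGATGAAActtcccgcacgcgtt
Slc7a11, chr3:50443652-50443699, minus strand: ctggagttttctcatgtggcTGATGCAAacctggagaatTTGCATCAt
Chac1, chr2:119351029-119351076, plus strand: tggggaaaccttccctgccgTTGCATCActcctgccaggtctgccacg
The unfolded protein response element TGACGTGG was in none of the 34 and in 0.676% of all promoters, and TGACGTCA was in Ppp1r15a alone and in 1.79% of all. A match is a description of letters, not of a bound site. Of the 8 genes with the ER stress element, Hspa5, Hsp90b1 and Pdia6 were called lower for WT against Null (limma, adjusted p under 0.05), and the other 5 (Calr, Canx, Dnajc3, Creld2 and Syvn1) were not called, beside 11.8% lower among all genes tested. Of the 6 with the amino-acid element, Trib3, Asns and Slc7a11 were lower and Herpud1, Atf3 and Chac1 were not called. Among the amino-acid genes the element was in 2 of 10 promoters, and Psat1, Psph, Shmt2 and Mthfd2, which lack these letters there, were lower in WT too.

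As a group the amino-acid genes were lower in WT and 53,54 than in Null and QM, and the ER chaperones differed less between the groups. Each gene was centred on its mean over the 23 arrays, and the 11 amino-acid genes were averaged within an array. That mean was 0.23 ± 0.14 (SD, n = 6) in Null, 0.34 ± 0.11 (n = 3) in QM, 0.01 ± 0.13 (n = 5) in 25,26, −0.30 ± 0.14 (n = 3) in 53,54 and −0.26 ± 0.14 (n = 6) in WT. All 9 arrays of WT and 53,54 lay below all 9 of Null and QM, with the highest WT array at −0.13 and the lowest Null array at −0.01. The 14 chaperones gave 0.03 ± 0.08 in Null, 0.09 ± 0.11 in QM, −0.01 ± 0.10 in 25,26, −0.09 ± 0.07 in 53,54 and −0.02 ± 0.12 in WT, and the ranges of all 5 groups overlapped. Arrays were also compared in pairs where the numbers that end the titles were taken to pair them. The chaperone mean was lower in all 3 pairs of LSL-WT arrays, with Cre minus empty virus at −0.137 to −0.099. In all 5 pairs of 53,54 minus Null it was lower too, at −0.115 to −0.070. For 25,26 minus WT 3 of 6 pairs lay below 0. The pairs of 53,54 and of 25,26 reuse arrays and are not independent. Replicates 2 and 3 of 53,54 and replicates 1, 2 and 3 of 25,26 each entered more than 1 pair. The amino-acid mean minus the chaperone mean went from 0.20 ± 0.13 in Null and 0.25 ± 0.20 in QM through 0.02 ± 0.17 in 25,26 to −0.21 ± 0.15 in 53,54 and −0.24 ± 0.17 in WT. These means are given as a description, with no test over genes.

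**Figure D1:**
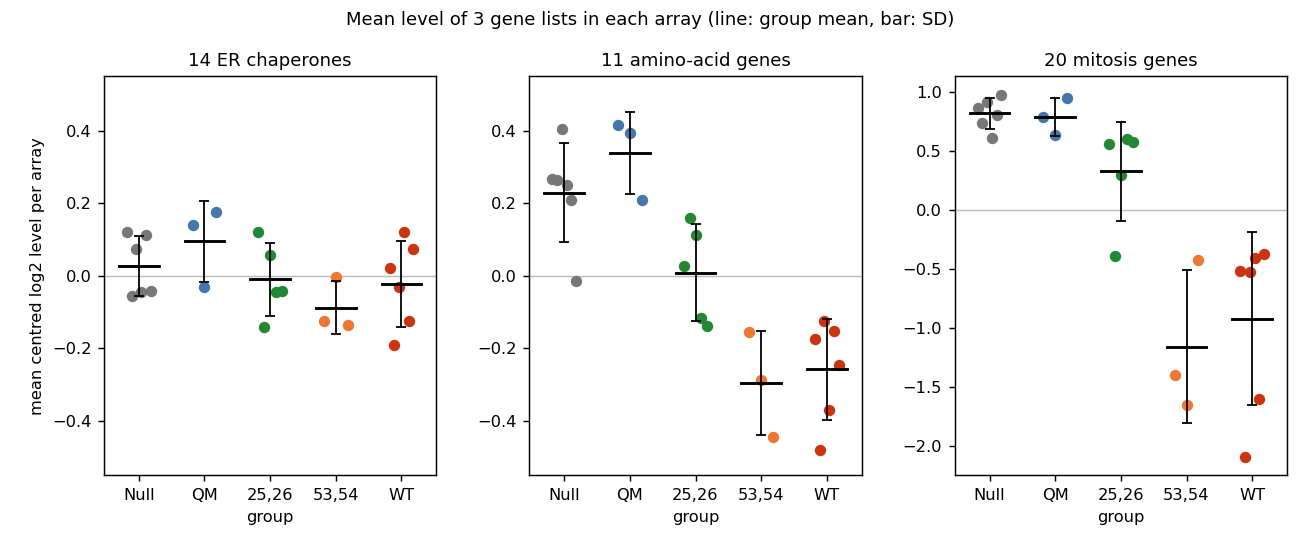
Mean log2 level per array, centred per gene, of 14 ER chaperones, 11 amino-acid genes and 20 mitosis genes in the 5 groups; points are arrays, lines are group means and bars are SD. The chaperone ranges overlap in all groups, while every WT and 53,54 array lies below every Null and QM array for the amino-acid genes, and the mitosis genes show the same separation on a wider scale.

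The same separation between groups was seen in genes that mark dividing cells. Within groups their mean did not always go with that of the amino-acid genes. WT replicate 2 was lowest of its group in both (mitosis −2.09, amino-acid −0.48). In 25,26, replicate 2 was lowest for mitosis (−0.39) and highest for the amino-acid genes (0.16). The mean of 20 mitosis genes, computed in the same way, was 0.82 ± 0.13 in Null, 0.79 ± 0.16 in QM, 0.33 ± 0.42 in 25,26, −1.16 ± 0.65 in 53,54 and −0.92 ± 0.74 in WT, and all 20 were lower in WT and in 53,54 than in Null. The mean of 10 fibroblast markers went from 0.34 ± 0.36 in Null to −0.34 ± 0.35 in WT, with 5 of 10 lower, and that of 7 epithelial markers from −0.56 ± 0.26 to 0.47 ± 0.30, with 4 of 7 higher. Dsp, the desmosomal plaque gene, had a mean of 5.23 in Null and 8.33 in WT, and Epcam stayed between 7.19 and 7.56 in all arrays. Of 5 macrophage markers tested, 1 was higher in WT and 2 in 53,54. In bulk RNA fewer cells of a type and less RNA per cell cannot be told apart, and the part of these differences in the stress gene results was not tested.

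WT against Null asks what active p53 does to these genes under H-Ras V12. Of the 38 genes 12 were lower in WT and 1 was higher, beside 11.8% lower and 10.9% higher among the 15266 genes tested. Lower were 6 of 11 amino-acid genes (Asns, Psat1, Psph, Shmt2, Mthfd2 and Slc7a11), the factor Atf4 and its feedback target Trib3, and 4 of 14 chaperones (Hspa5, Hsp90b1, Pdia6 and Manf). Dnajb9 was the one gene that was higher. The median log2 difference was −0.55 for the amino-acid genes, −0.10 for the chaperones, −0.01 for the ER sensors and degradation genes and −0.10 for the stress factors, against 0.00 over all genes tested.

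**Figure D2:**
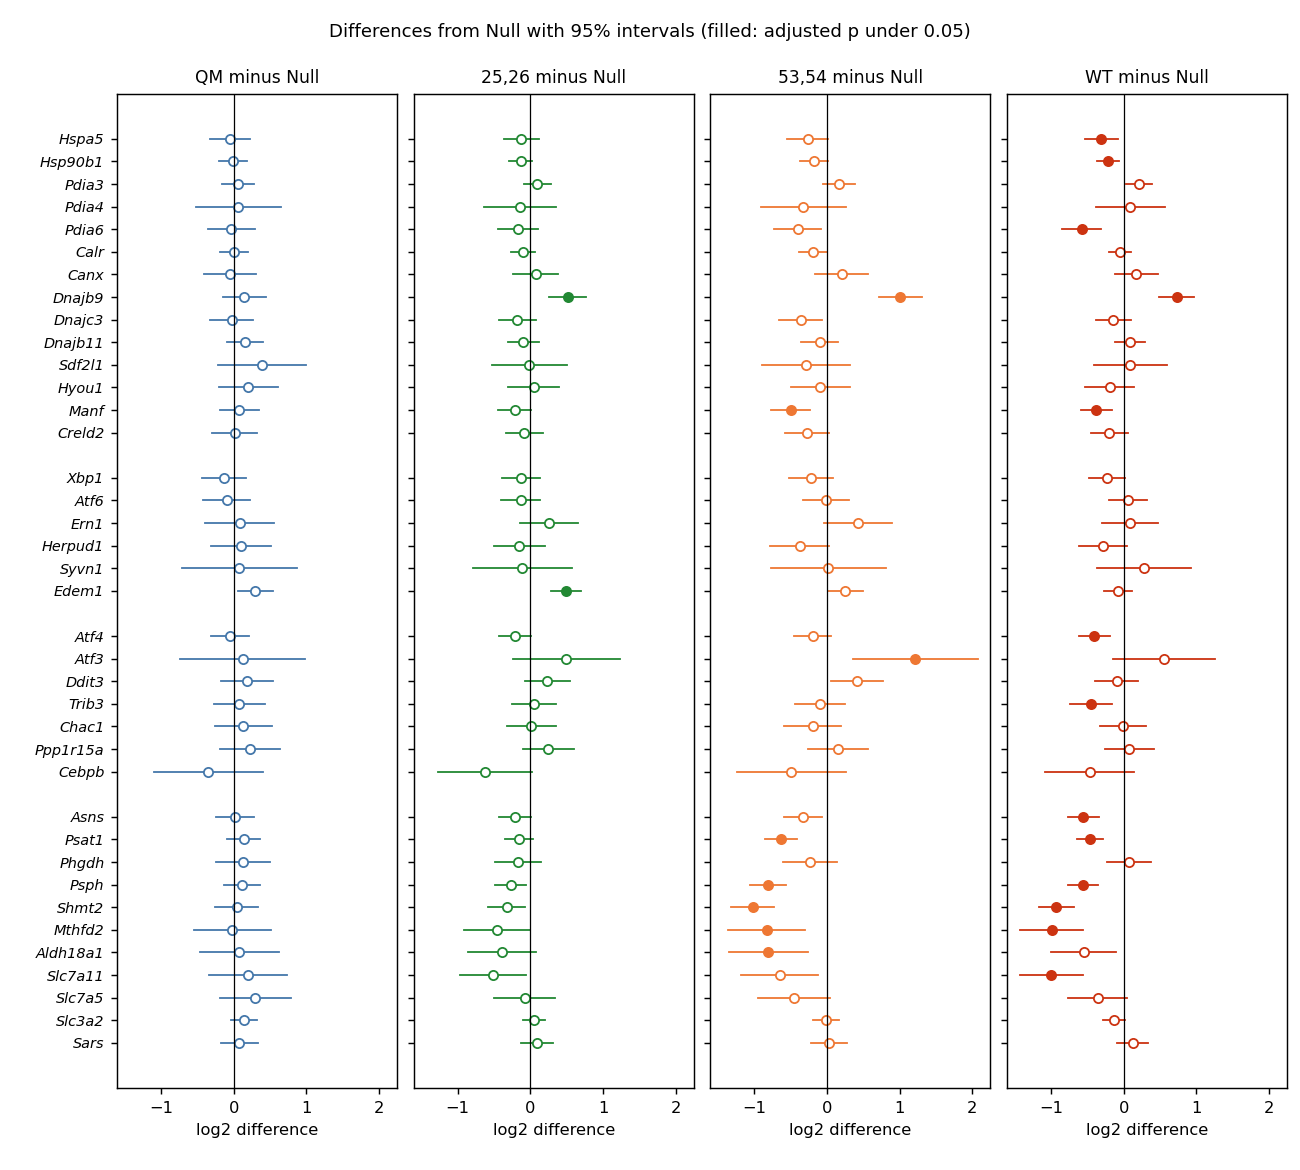
Log2 difference of each of the 38 genes from Null in QM, 25,26, 53,54 and WT, with 95% intervals of the limma fit; filled points passed an adjusted p of 0.05. Filled points lie left of 0 for 5 amino-acid genes in 53,54 and 6 in WT, Dnajb9 is filled and right of 0 in 3 panels, and no point is filled for QM. All 4 panels use the same Null arrays.

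Of the amino-acid genes, the serine and one-carbon enzymes come first. Shmt2, the mitochondrial serine hydroxymethyltransferase, ran from 11.65 through a median of 11.74 to 12.04 in Null and from 10.35 through 10.93 to 11.25 in WT. Its levels were 12.07, 11.82 and 11.64 in QM, 11.64, 11.45, 11.41, 11.42 and 11.44 in 25,26, and 10.77, 10.72 and 10.84 in 53,54. No WT or 53,54 array reached the lowest Null or QM array. All 25,26 arrays lay above WT and below Null, and the highest of them met the lowest QM array. The difference of WT from Null was −0.93 ± 0.12 (SE, adjusted p = 5.22e-06 by limma).

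Mthfd2, the mitochondrial methylenetetrahydrofolate dehydrogenase and a known Atf4 target, ran from 10.81 through 11.03 to 11.57 in Null and from 9.55 through 10.14 to 10.52 in WT. It stood at 10.75, 11.64 and 10.91 in QM, at 10.37, 11.17, 10.86, 10.52 and 10.41 in 25,26, and at 10.86, 9.99 and 10.03 in 53,54. WT and Null did not overlap, and 53,54 replicate 2 lay inside the Null range. WT differed from Null by −0.99 ± 0.21 (adjusted p = 0.00121).

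Psat1 and Psph, the phosphoserine aminotransferase and phosphatase that complete serine synthesis, were both lower in WT. Psat1 ran from 12.73 through 12.86 to 13.00 in Null and from 12.03 through 12.48 to 12.57 in WT. It stood at 13.09, 12.98 and 12.92 in QM, at 12.89, 12.64, 12.51, 12.77 and 12.71 in 25,26, and at 12.25, 12.11 and 12.30 in 53,54. Psph ran from 10.03 through 10.41 to 10.47 in Null and from 9.57 through 9.71 to 10.07 in WT, where only the highest WT array overlapped Null. Its levels were 10.42, 10.47 and 10.47 in QM, 10.30, 10.08, 10.19, 9.92 and 9.84 in 25,26, and 9.44, 9.67 and 9.46 in 53,54, and 53,54 overlapped only WT. The difference of WT from Null was −0.47 ± 0.09 for Psat1 (adjusted p = 0.000425) and −0.56 ± 0.10 for Psph (adjusted p = 0.000201). Phgdh, the enzyme that opens the same pathway, did not pass, at 0.07 ± 0.15 (adjusted p = 0.815).

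Asns, the asparagine synthetase, ran from 11.65 through 11.80 to 12.15 in Null and from 11.06 through 11.23 to 11.66 in WT. It was at 11.91, 11.90 and 11.73 in QM, at 11.45, 11.80, 11.68, 11.57 and 11.60 in 25,26, and at 11.44, 11.70 and 11.37 in 53,54. One WT array, replicate 3, reached into the Null range. WT differed by −0.56 ± 0.10 (adjusted p = 0.000377). Slc7a11, the cystine importer and a gene that p53 is known to repress, differed by −0.996 ± 0.209 (adjusted p = 0.00122), with WT arrays from 5.71 to 7.05 and Null arrays from 6.91 to 7.65. With the LSL-WT Cre arrays alone as WT, Slc7a11 gave −0.73 (adjusted p = 0.0514). Its partner chain Slc3a2 (−0.14 ± 0.07), the leucine importer Slc7a5 (−0.36 ± 0.19), the proline enzyme Aldh18a1 (−0.55 ± 0.21) and the seryl-tRNA synthetase Sars (0.12 ± 0.10) did not pass the threshold.

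Among the stress factors Atf4 itself was lower in WT at the transcript level. It ran from 12.45 through 12.72 to 12.90 in Null and from 12.04 through 12.34 to 12.53 in WT. Its levels were 12.66, 12.84 and 12.51 in QM, 12.47, 12.74, 12.59, 12.41 and 12.35 in 25,26, and 12.75, 12.44 and 12.37 in 53,54. Only Null replicate 6 lay inside the WT range, and the difference was −0.40 ± 0.10 (adjusted p = 0.00521). With the LSL-WT Cre arrays alone as WT it was −0.25 (adjusted p = 0.168), and with the Null Cre arrays alone as Null −0.34 (adjusted p = 0.081).

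Ddit3 (CHOP), the death-promoting factor downstream of Atf4, did not follow it. It ran from 9.67 through 10.24 to 10.33 in Null and from 9.62 to 10.37 in WT, and stood at 10.06, 10.35 and 10.39 in QM, at 10.21, 10.54, 10.62, 10.07 and 10.14 in 25,26, and at 10.45, 10.62 and 10.41 in 53,54. WT overlapped Null over nearly its whole range (−0.10 ± 0.14, adjusted p = 0.709). Trib3, the pseudokinase that restrains Atf4, differed by −0.45 ± 0.14 (adjusted p = 0.0193), but not without Null replicate 3 or without WT replicate 5 (adjusted p up to 0.0573). With the LSL-WT Cre arrays alone as WT Trib3 gave −0.25 (adjusted p = 0.316 by limma). With the Null Cre arrays alone as Null it gave −0.36 (adjusted p = 0.1325). The other 4, Atf3, Chac1, Ppp1r15a (GADD34) and Cebpb, did not pass, with differences from −0.47 for Cebpb to 0.56 for Atf3.

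The chaperones split in direction. Dnajb9 (ERdj4), a J-domain partner of Hspa5, ran from 10.38 through 10.65 to 11.09 in Null and from 11.16 through 11.44 to 11.62 in WT. Its levels were 10.70, 10.73 and 11.10 in QM, 10.99, 11.27, 11.41, 11.30 and 11.08 in 25,26, and 11.61, 11.78 and 11.73 in 53,54. Every WT and 53,54 array lay above every Null and QM array. The difference of WT from Null was 0.73 ± 0.12 (adjusted p = 8.82e-05).

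Manf, a secreted ER stress factor, ran from 12.62 through 12.84 to 12.97 in Null and from 12.10 through 12.54 to 12.62 in WT. It stood at 12.98, 12.71 and 12.98 in QM, at 12.74, 12.37, 12.67, 12.58 and 12.59 in 25,26, and at 12.13, 12.41 and 12.39 in 53,54. WT met the lower edge of Null without overlap (−0.38 ± 0.10, adjusted p = 0.0103), and with the Null Cre arrays alone as Null Manf gave −0.35 (adjusted p = 0.0812). Pdia6, a protein disulfide isomerase, ran from 12.01 through 12.21 to 12.30 in Null and from 11.09 through 11.74 to 11.91 in WT. Its levels were 12.29, 12.03 and 12.15 in QM, 12.05, 11.67, 11.99, 12.19 and 12.21 in 25,26, and 11.71, 11.74 and 11.91 in 53,54. No WT or 53,54 array reached Null, and the difference of WT was −0.58 ± 0.13 (adjusted p = 0.00167).

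Hspa5 (BiP), the master ER chaperone, ran from 13.52 through 13.69 to 13.87 in Null and from 13.08 through 13.36 to 13.62 in WT. It was at 13.60, 13.49 and 13.82 in QM, at 13.52, 13.27, 13.74, 13.65 and 13.65 in 25,26, and at 13.18, 13.58 and 13.50 in 53,54. The groups overlapped, and the difference of −0.31 ± 0.11 passed narrowly (adjusted p = 0.044). The call was lost without any 1 of 7 of the 12 arrays (WT replicates 1, 2, 4 and 5, Null replicates 3, 5 and 6, adjusted p up to 0.117). Hsp90b1 (GRP94) differed by −0.22 ± 0.07 (adjusted p = 0.0415), which ended without any 1 of 8 (WT replicates 1, 2, 4 and 5, Null replicates 2, 3, 5 and 6, adjusted p up to 0.111). The other 9 chaperones ranged from −0.20 for Creld2 to 0.21 for Pdia3, and none passed.

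None of the 6 sensors and degradation genes was called in WT. Xbp1, which encodes the factor that Ern1 activates by splicing, ran from 11.39 through 11.90 to 11.99 in Null and from 11.28 through 11.53 to 11.86 in WT. Its levels were 11.58, 11.58 and 11.83 in QM, 11.51, 11.47, 11.76, 11.82 and 11.76 in 25,26, and 11.37, 11.67 and 11.69 in 53,54. All groups overlapped, and WT differed from Null by −0.23 ± 0.12 (adjusted p = 0.184). The rest ranged from −0.28 ± 0.16 for Herpud1 to 0.28 ± 0.31 for Syvn1.

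**Figure D3:**
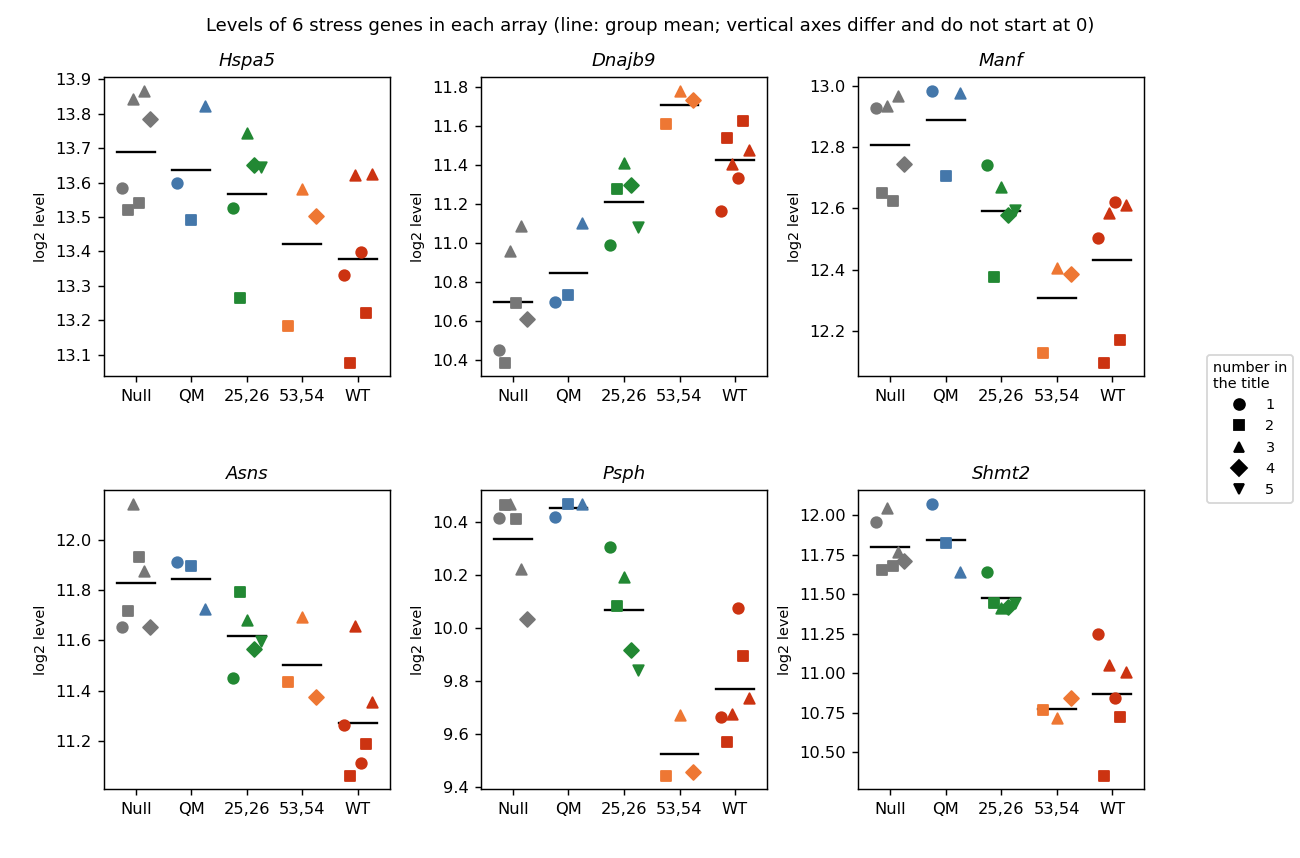
Log2 level of Hspa5, Dnajb9, Manf, Asns, Psph and Shmt2 in each array by group, with the group mean as a line and the marker showing the number that ends the sample's title. For Dnajb9 the WT and 53,54 arrays lie at 11.16 or above and all of Null and QM at 11.10 or below, and for Hspa5 and Manf the arrays numbered 2 lie low within their groups.

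The WT comparison has 2 parts that share no array, which separate Cre from empty virus in LSL-WT cells and WT from p53-null cells under Cre. In LSL-WT cells 5 genes were lower with Cre (Asns, Psat1, Psph, Shmt2 and Mthfd2) and Dnajb9 was higher, beside 6.89% lower and 4.80% higher among all genes. In WT Cre against Null Cre 8 were lower (Pdia6, Atf4, Trib3, Asns, Psat1, Shmt2, Mthfd2 and Slc7a11) and Dnajb9 and Phgdh were higher, beside 7.19% and 8.75%. Shmt2 gave −1.0 ± 0.17 and −0.86 ± 0.17 in the LSL-WT and the WT part, Mthfd2 −0.96 ± 0.30 and −1.03 ± 0.30, Psat1 −0.52 ± 0.13 and −0.41 ± 0.13, and Dnajb9 0.77 ± 0.17 and 0.68 ± 0.17. The call of Mthfd2 was lost without any 1 of 5 of the 6 arrays in the LSL-WT part and of 3 of 6 in the WT part. That of Psat1 was lost without any 1 of 2 of the 6 and of 4 of 6. Shmt2 and Dnajb9 kept their calls in both parts with each array left out. The WT part's count falls from 10 to 6 without WT replicate 4 or without WT replicate 5, and the LSL-WT part's from 6 to 3 without WT replicate 2. In the LSL-WT part the numbers in the titles were taken to pair the arrays. With the number as a block 20 of 38 were called, 18 of them lower, beside 26.7% of all genes called. Of the 14 chaperones 6 were then lower and 2 higher. Fitted to the compared arrays alone, without the block, 1 of the 38 was called in the LSL-WT part and 3 in the WT part. Of the 15266 genes tested, 807 and 1186 were called in these fits.

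The 2 parts themselves did not differ for any of the 38 genes by limma at the threshold, beside 0.00655% of all genes. At an unadjusted p under 0.05 there were 2 of the 38, beside 1193 of the 15266 genes tested. Psph fell by 0.81 in the LSL-WT part and gave −0.32 ± 0.12 in the other (adjusted p = 0.0832), a difference of 0.49 with an interval of 0.13 to 0.85 (adjusted p = 0.414). Phgdh gave −0.34 ± 0.15 and 0.48 ± 0.15, a difference of 0.82 ± 0.21 (adjusted p = 0.189).

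The 53,54 group, whose second transactivation domain is disrupted, had an amino-acid mean near that of WT (−0.30 and −0.26). The means of the ER sensors and degradation genes were also near (0.004 and −0.04). Those of the chaperones (−0.09 and −0.02) and of the stress factors (0.12 ± 0.18 and −0.11 ± 0.19) lay further apart. Against Null 6 of the 38 were lower, Manf and the amino-acid genes Psat1, Psph, Shmt2, Mthfd2 and Aldh18a1, beside 10.3% of all genes. Dnajb9 and Atf3 were higher, beside 9.22%. This comparison uses the same Null arrays as the one above. Psph differed by −0.81 ± 0.12 (adjusted p = 3.76e-05), Shmt2 by −1.03 ± 0.14 (adjusted p = 1.95e-05), Psat1 by −0.64 ± 0.11 (adjusted p = 0.000147) and Dnajb9 by 1.01 ± 0.14 (adjusted p = 2.22e-05), and none of these overlapped Null. Manf differed by −0.50 ± 0.13 (adjusted p = 0.00649), lost without 53,54 replicate 2 (adjusted p = 0.0621).

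Some calls in 53,54 rested on few arrays. Atf3, the immediate stress factor, stood at 9.64, 10.27 and 9.36 against 7.61 to 9.88 in Null, higher by 1.21 ± 0.41 (adjusted p = 0.0423). Its call ended without any 1 of 6 of the 9 arrays (53,54 replicates 2 and 3, Null replicates 1, 2, 4 and 6, adjusted p up to 0.232). Mthfd2 differed by −0.83 ± 0.26 (adjusted p = 0.0241), lost without 53,54 replicate 3, 53,54 replicate 4 or Null replicate 2 (adjusted p up to 0.155). Aldh18a1 differed by −0.81 ± 0.26 (adjusted p = 0.0313), lost without 53,54 replicate 3 or 4 or Null replicate 2, 3 or 4 (adjusted p up to 0.226). The count of 8 called genes fell to 5 without 53,54 replicate 3 or without Null replicate 2.

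In 53,54 against Null the title numbers were taken to pair the arrays, from correlations in these same data. Strain labels differed within some pairs, as in 53,54 replicate 2 (mixed) and Null replicate 2 (129/Sv). The number as a block raised the count to 22 of 38, beside 31.8% of all genes. With the block 16 were lower and 6 higher, beside 16.9% lower and 14.9% higher among all genes. Of the 14 chaperones 7 were lower, among them Hspa5 (−0.29, adjusted p = 0.00035), Pdia6 (−0.41) and Creld2 (−0.29), and 3 were higher, Dnajb9 (0.97), Pdia3 (0.20) and Canx (0.21). The median difference of the chaperones without the block was −0.23 and that of the amino-acid genes −0.64. The stress factor Ddit3, at 0.41 ± 0.17 without the block (adjusted p = 0.105), was higher with it at 0.44 (adjusted p = 0.026).

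Against WT 3 of the 38 genes had an unadjusted p under 0.05 in 53,54 by limma, beside 1100 of the 15266 genes tested. With array weights 3 were called, beside 734 of all genes. In the main fit none of the 38 was called, beside 0.367% of all genes. That does not show equal levels: the 95% interval of the difference was −0.39 to 0.20 for Shmt2, −0.49 to 0.00 for Psph, −0.03 to 0.49 for Asns and 0.15 to 0.87 for Ddit3.

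The 25,26 group, whose first transactivation domain is disrupted, lay between Null and WT for the amino-acid genes. Against Null none of the 11 passed, with a median of −0.21 and 9 of 11 below 0, and 2 other genes of the 38 were higher, Dnajb9 and Edem1, beside 3.02% higher and 1.28% lower among all genes. Dnajb9 was higher by 0.51 ± 0.12 (adjusted p = 0.0166), lost without 25,26 replicate 3 (adjusted p = 0.0628). Shmt2 did not overlap Null and gave −0.33 ± 0.12 (adjusted p = 0.156), Slc7a11 gave −0.51 ± 0.22 (adjusted p = 0.228), and Psph −0.27 ± 0.10 (adjusted p = 0.171).

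Edem1, which hands misfolded glycoproteins to degradation, was higher in 25,26 than in either Null or WT. Its probe set ran from 10.15 through 10.31 to 10.39 in Null and from 9.87 through 10.30 to 10.45 in WT. It stood at 10.59, 10.72, 10.99, 10.81 and 10.85 in 25,26, at 10.68, 10.45 and 10.65 in QM and at 10.49, 10.63 and 10.52 in 53,54. Every 25,26 array lay above every Null and WT array, by 0.49 ± 0.10 against Null (adjusted p = 0.00434) and 0.57 ± 0.10 against WT (adjusted p = 0.00108). With the Null Cre arrays alone as Null, Edem1 gave 0.46 (adjusted p = 0.0548). Another probe set of Edem1 gave 0.31 for 25,26 minus Null, 0.56 for 53,54 minus Null and 0.25 for WT minus Null, where the one used gave −0.08 for WT, so the 2 probe sets order the groups differently.

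Against WT 4 genes were higher in 25,26, Edem1, Trib3 (0.50 ± 0.14), Psat1 (0.31 ± 0.09) and Shmt2 (0.60 ± 0.12, adjusted p = 0.00405), beside 4.34% higher and 3.36% lower among all genes, and none was lower. Shmt2 did not overlap between the groups. The calls of Trib3 and Psat1 ended without any 1 of 7 and of 6 of the 11 arrays, among them 25,26 replicates 4 and 5 and WT replicates 2, 4 and 5 for both, 25,26 replicates 2 and 3 for Trib3 and 25,26 replicate 1 for Psat1 (adjusted p up to 0.103 and 0.111), and the count of 4 fell to 2 without 25,26 replicate 4 or 5 or WT replicate 5. In this comparison too the title numbers were taken to pair the arrays. With them as a block 13 genes were higher and none lower, beside 12.0% of all genes called. Of these 13, 8 were amino-acid genes, among them Asns (0.39), Mthfd2 (0.67), Psph (0.42) and Slc7a5 (0.53). With the same block fitted to the 25,26 and WT arrays alone 1 gene was called, and Edem1 (0.55, adjusted p = 0.0536), Shmt2 (0.63, adjusted p = 0.0571), Trib3 (adjusted p = 0.114) and Psat1 (adjusted p = 0.322) were not.

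QM, with both domains disrupted, was not told apart from Null. None of the 38 genes passed by limma, beside 0.0131% of all genes. At an unadjusted p under 0.05 there was 1 of the 38, beside 377 of the 15266 genes tested. The amino-acid genes had a median of 0.12 with 10 of 11 above 0, and the chaperones one of 0.04. The intervals allowed −0.25 to 0.34 for Shmt2, −0.25 to 0.28 for Asns, −0.33 to 0.23 for Hspa5 and −0.15 to 0.44 for Dnajb9.

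Against WT 11 of the 38 genes were higher in QM and Dnajb9 was lower (−0.58 ± 0.14), beside 8.16% higher and 5.76% lower among all genes. The higher ones were 7 amino-acid genes (Asns, Psat1, Psph, Shmt2, Mthfd2, Slc7a11 and Slc3a2), with Pdia6, Manf, Edem1 and Trib3. Slc7a11 differed by 1.20 ± 0.26 (adjusted p = 0.00284), Shmt2 by 0.97 ± 0.14 (adjusted p = 8.18e-05) and Psph by 0.68 ± 0.12 (adjusted p = 0.000505). The count of 12 fell to 6 without QM replicate 1 and to 7 without QM replicate 3. The call of Edem1 was lost under 7 of 10 other settings and without any 1 of 4 of the 9 arrays, and its mean of probe sets gave 0.096 (adjusted p = 0.677). Trib3 was lost without any 1 of 7 of the 9 arrays and Slc3a2 without any 1 of 5, with adjusted p up to 0.143 and 0.152. Manf and Pdia6 were each lost without QM replicate 1 or 3, Dnajb9 without QM replicate 1 or 2, and Mthfd2 without QM replicate 2. Psat1, Psph and Shmt2 kept their calls under all 10 settings and without each array in turn.

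**Figure D4:**
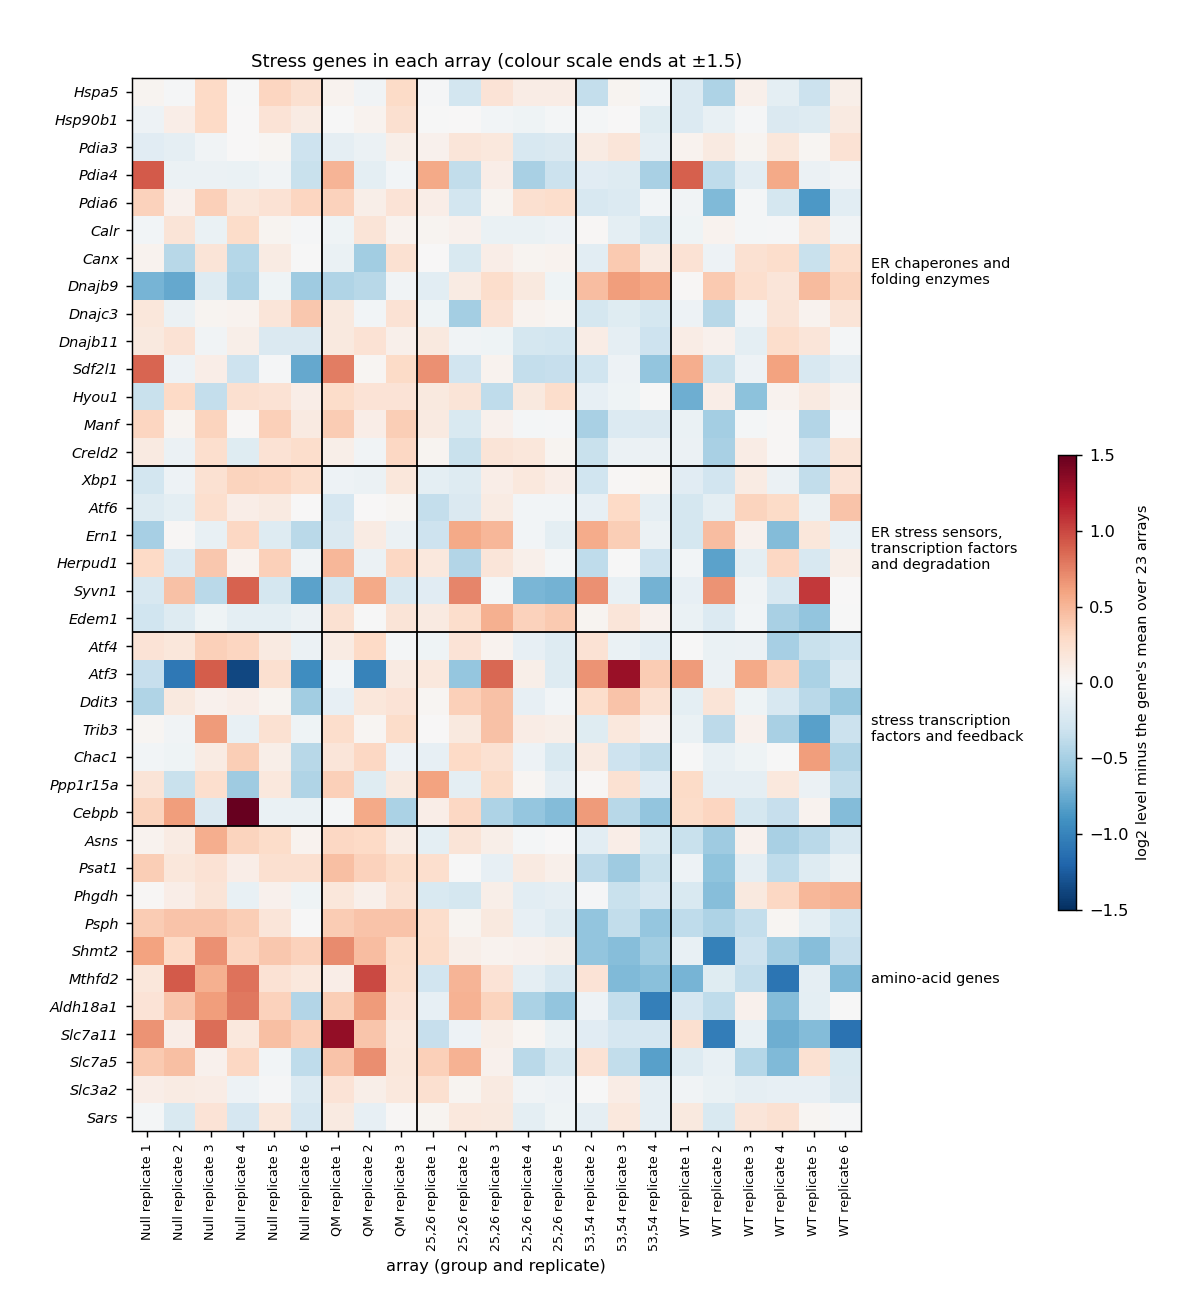
Log2 level of the 38 genes in each of the 23 arrays, centred on the gene's mean over all arrays; genes are grouped by role and arrays by group, and the colour scale ends at 1.5 either way. The amino-acid rows are mostly red in Null and QM and blue in 53,54 and WT, while Pdia4 and Sdf2l1 are red in the replicate 1 arrays of several groups and in WT replicate 4.

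Within the groups, the levels of most chaperones went with the number that ends the sample's title. That number held a median of 80.4% of the within-group variance of the 14 chaperones and 48.3% of that of the 11 amino-acid genes, beside 48.9% over all genes tested. The share was 94.3% for Hspa5, 94.5% for the Hspa5 partner Sdf2l1, 92.1% for the disulfide isomerase Pdia4, and 96.0% for the ubiquitin ligase Syvn1. What the number stands for is not given in the labels. Each number spans several groups except 5, which only 25,26 replicate 5 carries.

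The pattern was not one shift of the whole response. Pdia4 lay between 9.55 and 9.96 in the 5 arrays numbered 1, which belong to 4 groups, and between 8.55 and 9.15 in the other 18 arrays. Sdf2l1 lay between 8.63 and 8.96 in those 5 and between 7.31 and 8.37 in the 18. For Syvn1 the 7 arrays numbered 2 stood apart, between 10.03 and 10.65, with no other array above 9.60. Hspa5 was low in those numbered 2, with a median of 13.27 against 13.74 in the 7 numbered 3.

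Further genes of both branches, which are not among the 38, were counted from 2 pathway lists. Of 38 other integrated stress and amino-acid genes tested, 11 were lower and 3 higher in WT than in Null, 8 and 5 in 53,54, and none either way in 25,26 (beside the shares of all genes given above). The genes with the strongest statistics in WT were Shmt1 (−1.36 ± 0.17), the cytosolic partner of Shmt2, the cystathionine gamma-lyase Cth (−1.29 ± 0.20), Mthfd1l (−0.89 ± 0.14), Bcat1 (−0.70 ± 0.12), and, higher, the p53 targets Sesn2 (1.32 ± 0.15) and Ddit4 (1.13 ± 0.20). In 53,54 they were Shmt1 (−1.55 ± 0.21), Bcat1 (−0.98 ± 0.15), Tars (−0.52 ± 0.08), Sesn2 (1.10 ± 0.19), Mthfd1l (−1.02 ± 0.18) and, from the other list, of ER genes, the translocon gene Ssr1 (−0.59 ± 0.11). Against WT 7 of the 38 other integrated stress and amino-acid genes were higher in 25,26 and 2, Sesn2 and Ddit4, were lower. Among all genes tested 4.34% were higher and 3.36% lower in that comparison.

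Of 35 other ER genes tested, 4 were lower and 3 higher in WT, with a median of −0.01. That is 11.4% and 8.57%, near the 11.8% and 10.9% of all genes tested. In 53,54 they were 3 and 2, and in 25,26 against Null none. The median of the other amino-acid and stress genes was −0.17 in WT and −0.16 in 53,54.

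Phgdh shows what the choice of probe set does. Its chosen probe set lay between 12.33 and 13.50 in the 23 arrays, and 2 others spanned 1.07 and 1.15. The fourth lay between 5.57 and 7.28 in 8 arrays and between 11.71 and 13.06 in 15, with nothing between. All 8 low arrays were labelled 129/Sv, as were 6 of the 15 high ones, and all 9 arrays of mixed background were high. The 8 were 25,26 replicates 1, 2, 4 and 5, QM replicate 2, Null replicate 6 and WT replicates 4 and 5. When the probe sets were averaged, WT Cre minus Null Cre turned from 0.48 to −0.086 for Phgdh.

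**Figure D5:**
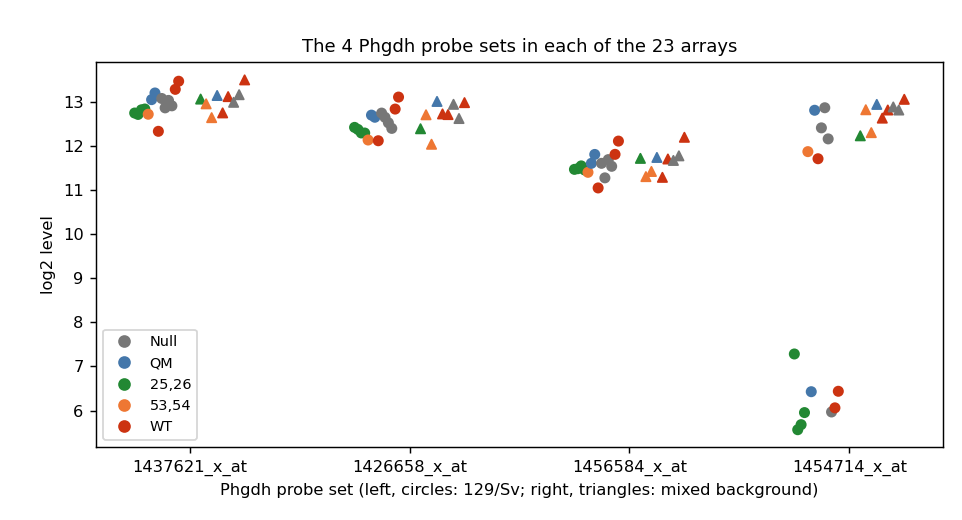
Log2 level of the 4 Phgdh probe sets in each array, coloured by group, with 129/Sv arrays as circles on the left and mixed arrays as triangles on the right of each column. In 3 probe sets the arrays lie together, and in the fourth 8 of the 14 arrays labelled 129/Sv lie at 7.28 or below.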

How the data were processed

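RNA of 23 mouse embryonic fibroblast samples was measured on Affymetrix arrays. The authors deposited 1 intensity per probe set and array on a linear scale, computed with RMA per the submitters' processing notes; version and options are not given in the sources used here. Intensities were taken to log2. Of 45101 probe sets, 34945 carried 1 gene symbol; those with several (932) or none listed, and 64 controls, were left out. Of 18193 genes, the 15266 tested had 3 or more arrays over log2 4.79, the 30th percentile of the whole table. limma 3.58.1 in R 4.3.3 fitted 5 group means, or 7 subgroup means for the parts of WT against Null, to all 23 arrays (two-sided, Benjamini-Hochberg over all genes tested, threshold 0.05). The fit was tested on simulated data. The members and lists were chosen with earlier results of these data known. All 38 members could be named; full values went to those called against Null with groups not overlapping and to Hspa5, Xbp1, Atf4, Ddit3 and Asns, and up to 6 other pathway genes per comparison were named by moderated statistic. Title numbers were taken to pair arrays where there were 3 or more same-numbered pairs and all correlated over 0.1 in their deviations from the group means. This held for 53,54 against Null (lowest 0.15), 25,26 against WT (lowest 0.19) and the LSL-WT part. The WT Cre part had 2 such pairs, both over 0.1, and was not taken as paired. Alternatives changed the filter, probe set rule, normalization, strain term, title number block, weights, and arrays used.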

Additional observations from a re-analysis of the deposited data

Results flagged for a closer look

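Dixon's criterion for a sample far from the others was applied to the 38 genes in the 3 groups of 5 or 6 arrays, 114 group values in all. It met 4 of them, and chance alone is expected to meet about 1 in 20. Pdia4 stood at 9.96 in Null replicate 1, with the next Null array at 8.99, and this is one of the arrays numbered 1 in which Pdia4 was high in every group that has such an array. Shmt2 stood at 11.64 in 25,26 replicate 1, with the other 4 arrays between 11.41 and 11.45. Hyou1, an ER chaperone of the Hsp70 family, stood at 9.96 in 25,26 replicate 3, with the next at 10.49. Canx, the lectin chaperone calnexin, stood at 12.37 in 25,26 replicate 2, with the next at 12.61.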

How the results depend on the processing

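Of 55 results for single genes of the 38 that passed the threshold, 16 kept their call under all alternatives that leave no array out and 29 with each array left out in turn. One reversed under an alternative: Phgdh, WT Cre against Null Cre, went from 0.48 to −0.086 with the mean of its probe sets. The causes of the changes below were not tested. In the counts that follow, members are the 38 genes, genes are all genes tested, and differences are on the log2 scale.

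With the title number as a replicate block the members called rose from 13 to 21 in WT against Null (3 higher, 18 lower). That was beside 16.2% higher and 17.6% lower among all genes tested. Members called rose from 2 to 8 in 25,26 against Null and from 8 to 22 in 53,54 against Null. Against WT they rose from 4 to 13 in 25,26 and from 12 to 21 in QM. They rose from 6 to 20 in the LSL-WT part, from 10 to 16 in the WT Cre part, and from 0 to 1 (Phgdh) for the difference of the parts. Genes called went to 2167 from 656, to 4847 from 2986, to 1828 from 1176 and to 4025 from 2125 in the same order from 25,26 against Null on. They went to 158 from 56 in 53,54 against WT, to 4078 from 1785 and 4297 from 2433 in the parts, and to 245 from 1 for their difference. Not every pair correlated over 0.1 in WT against Null (9 of 10), 25,26 against Null (5 of 6), QM against Null (4 of 5), QM against WT (5 of 6) and 53,54 against WT (3 of 4), where the arrays share only a number. The block fitted to the compared arrays alone, chosen after seeing the data, gave 7 members and 1805 genes in 25,26 against Null, 19 members in 53,54 against Null and 0 genes in QM against Null. It gave 1 member and 522 genes in 25,26 against WT, 0 genes in 53,54 against WT, 16 members and 4667 genes in the LSL-WT part, 0 members and 20 genes in the WT Cre part, and 2 genes for the difference.

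Fitting the compared arrays alone, without the block, left 1 member in 25,26 against Null, 0 genes in QM against Null, 2 members and 648 genes in 25,26 against WT, 3 genes in 53,54 against WT, and 7 members and 1284 genes in QM against WT. It left 1 member and 807 genes in the LSL-WT part, 3 members and 1186 genes in the WT Cre part and 0 genes for the difference. Array weights gave 5 members and 1435 genes in 25,26 against Null, 17 and 5457 in 53,54 against Null, 7 genes in QM against Null, 2288 genes in 25,26 against WT, 3 members and 734 genes in 53,54 against WT, and 24 genes for the difference. With the LSL-WT Cre arrays alone as WT, 8 members were called in WT against Null, 505 genes in 25,26 against WT, 7 genes in 53,54 against WT and 6 members in QM against WT. With the Null Cre arrays alone as Null, 0 members and 422 genes were called in 25,26 against Null and 23 genes in QM against Null. Without the arrays numbered 2 there were 1 member in 25,26 against Null, 7 in QM against WT, 1157 genes in the LSL-WT part, 6 members in the WT Cre part and 4 genes for the difference. The strain term gave 7 members in 25,26 against WT and 9 genes for the difference, quantile normalization 12 genes for the difference, and the mean of probe sets 2. The latter moved the chaperone median of the WT Cre part from −0.068 to 0.051.

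Leaving out 1 array at a time gave 1 to 2 members in 25,26 against Null, 5 to 8 in 53,54 against Null, 2 to 6 in 25,26 against WT, 6 to 13 in QM against WT, 3 to 7 in the LSL-WT part and 6 to 10 in the WT Cre part. Genes called ranged from 415 to 593 in 25,26 against Null, 1923 to 2985 in 53,54 against Null, 0 to 2 in QM against Null, 713 to 1329 in 25,26 against WT, 11 to 143 in 53,54 against WT, 1399 to 2141 in QM against WT, 994 to 1661 in the LSL-WT part and 0 to 47 for the difference. The amino-acid median ranged from −0.68 to −0.48 in the LSL-WT part and from −0.48 to −0.23 in the WT Cre part, and the chaperone median from −0.26 to −0.10 in the LSL-WT part. The nearest values to 0 came without Null replicate 4 for the amino-acid median of the WT Cre part and without WT replicate 2 for the chaperone median. With 3 arrays in 53,54, QM and each subgroup, a gene that missed the threshold there is not shown to be equal.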
